A study of Mus musculus with 2 samples.

Results

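Basophils are rare granulocytes that carry IgE on the high-affinity Fc receptor and release histamine, proteases, chemokines and cytokines. In mice they make the granule serine proteases Mcpt8 and Prss34, which serve as their markers, and they mature in the bone marrow from granulocyte progenitors under IL-3. Immature granulocytes fill their granules through heavy protein synthesis in the endoplasmic reticulum (ER) while they still divide, and mature ones leave the cycle and display receptors for chemoattractants and inflammatory signals.

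The cells described here are Prss34-high resting basophils from mouse bone marrow sorted as E-cadherin+cKIT-. They were chosen from their own counts of RNA molecules, each tagged with a unique molecular identifier (UMI). A cell needed at least 1000 UMIs, at least 0.3% of UMIs from Mcpt8, Fcer1a, Ms4a2 and Cd200r3 together, and fewer than 3 UMIs each of Cd79a (B cells), C1qa (macrophages) and Prg2 (eosinophils). It also had to lack any UMI of Mki67 and Top2a, which mark dividing cells, and to give at least 1% of its UMIs to Prss34. Of the 3745 cells of the E-cadherin+cKIT- library, 3688 passed the UMI minimum, 3176 the basophil share, 3166 the exclusions and 1969 the absence of Mki67 and Top2a. The Prss34 limit left 797 cells, which is 21.3% of the library (exact binomial 95% interval 19.98% to 22.6%), 40.5% of its resting basophils, and 797 of 10377 cells in the series.

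The study sorted E-cadherin+ bone marrow cells by cKIT, to place E-cadherin+ progenitors beside basophil and mast cell precursors, and sequenced 1 droplet library of the cKIT+ and 1 of the cKIT- cells. The labels give FVB mice, whereas the study's text names wild-type mice in 1 place and Vav-iCre;mTmG mice in another, in which Cre made in blood cells switches a fluorescent reporter. No treatment is named in the labels, cells of several mice were sorted, the ages of the mice are not given in the sources used here, and cells carry no label of the animal they came from. E-cadherin, encoded by Cdh1, is an adhesion protein, and cKIT is the receptor for stem cell factor that progenitors and mast cells carry. The cells of comparison were 1172 Prss34-low resting basophils of the same library (under 1% Prss34), 897 cycling Prss34-high basophils of the same library (at least 3 UMIs of Mki67 and Top2a together), and 442 Prss34-high resting basophils of the cKIT+ library. Another 262 Prss34-high cells with 1 or 2 UMIs of Mki67 and Top2a went into neither the resting nor the cycling group.

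Levels are UMIs summed over the cells of a group and scaled to the same total (CPM, counts per 1000000), with exact 95% intervals that cover counting error only. With 1 library per group no comparison was tested, since cells of 1 library are not replicates. Because Prss34 in these same cells chose the members, all differences between Prss34-high and Prss34-low cells are a description. Between the libraries, the sort, the library and its depth cannot be told apart. The libraries shared 10 cell barcodes, 1 of them a member, whose namesake in the cKIT+ library did not pass the rule.

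Prss34-high resting cells held between 1330 and 17753 UMIs, with a median of 5602, and a median of 1955 genes. Prss34-low cells had a median of 3057.5 UMIs, cycling cells 11272, and the cKIT+ Prss34-high cells 10319.5. Mean UMIs per cell were 2.00 times higher in Prss34-high than in Prss34-low resting cells, so a gene with lower CPM need not have fewer molecules per cell. Mitochondrial genes took a median of 4.11% of UMIs in members and 2.89% in Prss34-low cells.

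Prss34 itself, which sets the limit, lies on chromosome 17 from 25298394 to 25300165 on the plus strand (GRCm38, protein coding). Its share of a member's UMIs ran from the limit to 11.7%, with a median of 4.51% and quartiles of 2.91% and 6.38%. Among all 1969 resting basophils 892 had a share under 0.1%, and above that the shares ran on without a gap. Per 0.1% of share there were 20 cells between 0.5% and 0.8%, 16 between 0.8% and 1%, 14 between 1% and 1.2%, 11 between 1.2% and 2%, 10.9 between 2% and 4%, and 9 between 6% and 8%. The limit therefore cuts a continuous range and does not part 2 separate groups. At 1000 UMIs per cell, 39.8% of Prss34-low cells had a Prss34 UMI, against 15.0% of B-lineage cells of the same library, which should lack the gene and had a median of 2707 UMIs. The 32 cells just outside it (0.8% to 1%) and the 28 just inside it (1% to 1.2%) were alike in some genes and not in others. Mcpt8 stood at 11311 CPM outside and 10359 inside, and the chemokine gene Ccl6 at 5054 and 5370 CPM, so the cells just inside were still near the 5823 CPM of Ccl6 in Prss34-low cells. Ctsg stood at 767 CPM (622 to 936) outside and 363 CPM (258 to 496) inside, the reverse of its order between all Prss34-low cells and members. The 767 CPM rest on 97 UMIs. Among all Prss34-low cells, 5 cells held 22.5% of the Ctsg UMIs and 1 cell held 80. Whether a few cells set the value outside was not tested.

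**Figure D1:**
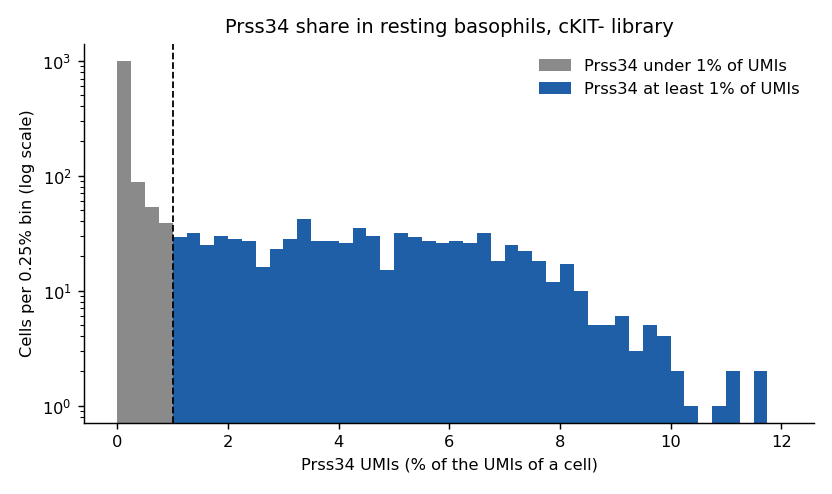
Prss34 UMIs as a percentage of the UMIs of each cell (x axis) against the number of resting basophils of the cKIT- library per 0.25% bin (y axis, log scale), with the 1% limit dashed. The 797 cells at or above the limit (blue) spread up to 11.7%, and 892 of the 1172 cells below it (grey) lie under 0.1%.

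Besides Prss34, the granule protease genes Mcpt8 and Ctsg (cathepsin G) had the largest CPM ratios of their group between Prss34-high and Prss34-low cells. They lie near each other on the minus strand of chromosome 14, Mcpt8 from 56082166 to 56085273 and Ctsg from 56099881 to 56102574. The sequence before the start of each of these 3 genes is shown because they were high together in these cells. For Prss34 and Mcpt8 the rule fixed this in part, since it used both genes. It was taken from RefSeq (GRCm38.p6) and is printed 5' to 3' on the strand of the gene. Capitals mark AGATAA (the GATA motif), TGTGGT (RUNX), TTGCNNAA (C/EBP) and TTCNNNGAA (STAT5) on either strand.
Prss34, chr17:25298144-25298393, plus strand: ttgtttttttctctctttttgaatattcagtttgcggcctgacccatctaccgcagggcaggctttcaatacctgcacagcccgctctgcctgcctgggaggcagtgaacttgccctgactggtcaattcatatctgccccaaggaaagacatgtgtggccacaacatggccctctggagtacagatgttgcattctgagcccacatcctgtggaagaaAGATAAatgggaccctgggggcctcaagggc
Mcpt8, chr14:56085274-56085447, minus strand: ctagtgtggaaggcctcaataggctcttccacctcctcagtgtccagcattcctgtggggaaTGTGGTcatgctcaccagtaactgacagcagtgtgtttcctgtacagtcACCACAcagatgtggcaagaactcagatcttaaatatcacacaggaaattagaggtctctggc
Ctsg, chr14:56102575-56102824, minus strand: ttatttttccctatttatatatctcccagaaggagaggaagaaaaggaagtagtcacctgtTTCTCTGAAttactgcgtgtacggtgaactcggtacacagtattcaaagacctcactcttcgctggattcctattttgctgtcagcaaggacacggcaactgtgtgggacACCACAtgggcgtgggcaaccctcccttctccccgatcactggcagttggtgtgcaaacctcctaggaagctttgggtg
The Prss34 window holds 1 GATA match 31 bases before the RefSeq start. The Mcpt8 window is cut short where a longer annotated transcript begins at 56085273, upstream of the RefSeq start at 56085197. It holds 2 RUNX matches, 112 and 63 bases before the longer transcript and 188 and 139 bases before the RefSeq start. Ctsg has 1 RUNX match 79 bases and 1 STAT5 match 189 bases before its RefSeq start. Among 32851 windows of 250 bases before a gene start, 9.99% held AGATAA, 14% TGTGGT, 9.56% TTGCNNAA and 7.02% TTCNNNGAA, so such matches are common and none of them is shown to be a bound site.

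The label was checked against markers. Of the 12 basophil markers listed, 11 reached 50 CPM in members, and Itga2 did not. The 11 include Prss34 and the 4 genes of the basophil share, which the rule used. Mcpt8 stood at 31466 CPM (31310 to 31621), Fcer1a, the IgE-binding chain of the Fc receptor, at 1402 CPM, Ms4a2, its beta chain, at 2018 CPM, and Cd200r3, an activating receptor of the CD200 receptor family, at 336 CPM. All of these were used by the rule. Not used by it were Cd200r4 (223 CPM), Alox15, a lipoxygenase (284 CPM), Cpa3, mast cell carboxypeptidase (3245 CPM), Hdc, which makes histamine (518 CPM), and Gata2, a transcription factor of the lineage (1257 CPM). After every cell was reduced to 1000 UMIs, Gata2 was seen in 70.4% of members and 0.881% of 227 B-lineage cells of the same library, and Hdc in 43.0% and 0% of them. The gene of the sorted protein, Cdh1, had 214 CPM (201 to 227), and Kit had 6 UMIs in all, or 1.197 CPM.

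Markers of other cell types were near 0 in members, with a few exceptions. The rule itself capped Cd79a, C1qa and Prg2, which are in the B-lineage, macrophage and eosinophil lists, so it partly fixed the low sums of those lists. The 8 mast cell markers found in the files summed to 16.8 CPM, with Mcpt4, Tpsb2 and Mrgprb2 at 0 and Gzmb the most abundant. The 8 B-lineage markers summed to 52.7 CPM, with Pax5 at 0 and Cd79b the most abundant. Macrophage markers summed to 9.98 CPM, monocyte markers to 34.5, erythroid markers to 15.97, dendritic cell markers to 14.8 and eosinophil markers to 97.2 CPM, most of the last from Ear2. The megakaryocyte list stood at 479 CPM, nearly all of it Itga2b (478 CPM), the integrin chain CD41, with Pf4 and Ppbp at 0. The T and NK cell list summed to 456 CPM through Nkg7 and Il7r, with Cd3e, Cd3g, Trac, Klrb1c and Ncr1 at 0.

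Neutrophil markers were the largest exception, at 2458 CPM in members against 272 CPM in Prss34-low cells, and their UMIs were spread in 2 ways. A single member, the deepest cell with 17753 UMIs and 3.24% Prss34, held 715 of the 725 Camp UMIs, 407 of 418 Ngp UMIs, 176 of 177 Ltf UMIs, 1301 of 1623 S100a8 UMIs and 2149 of 2581 S100a9 UMIs. Without that cell Camp stood at 2.00 CPM, Ngp at 2.20, S100a8 at 64.5 (63.5 in Prss34-low cells) and S100a9 at 86.5 (102 in Prss34-low cells). Mpo, the gene for myeloperoxidase of primary granules, was different: it was seen in 564 of 797 members (70.8%), and 44.2% of members had 3 or more UMIs. Any Mpo UMI was found in 13.7% of Prss34-low cells, 93.3% of cycling cells and 97.5% of cKIT+ Prss34-high cells. In B-lineage cells the share was 2.20%. These shares are over all UMIs, and B-lineage cells were shallower (median 2707 UMIs) than members (5602). Lcn2 was spread too, over 32.7% of members. The neutrophil protease genes Elane and Prtn3 had 4.79 and 15.0 CPM.

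Against Prss34-low resting cells, Prss34-high cells had more RNA of granule proteases, ER folding factors and DNA replication genes, and less of chemokines and of several chemoattractant receptors. Of 3120 genes with at least 50 CPM in 1 of the groups, 145 were at least 2-fold higher in members (4.65%) and 152 at least 2-fold lower (4.87%), with a median log2 ratio of -0.21 over all genes. A gene that reached 50 CPM only in the group where it was high was bound to differ, and 90 of the 145 and 78 of the 152 were such genes. Counts over a gene list therefore describe its measured genes, and the number of list genes that reached 50 CPM in both groups is given where it changes the picture. Leaving Prss34 and the 10 most abundant genes out of the totals gave 193 and 115, and counting UMIs per cell in place of CPM gave 1092 and 9, with an all-gene median of 0.79 in place of -0.21. Directions below are in CPM.

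**Figure D2:**
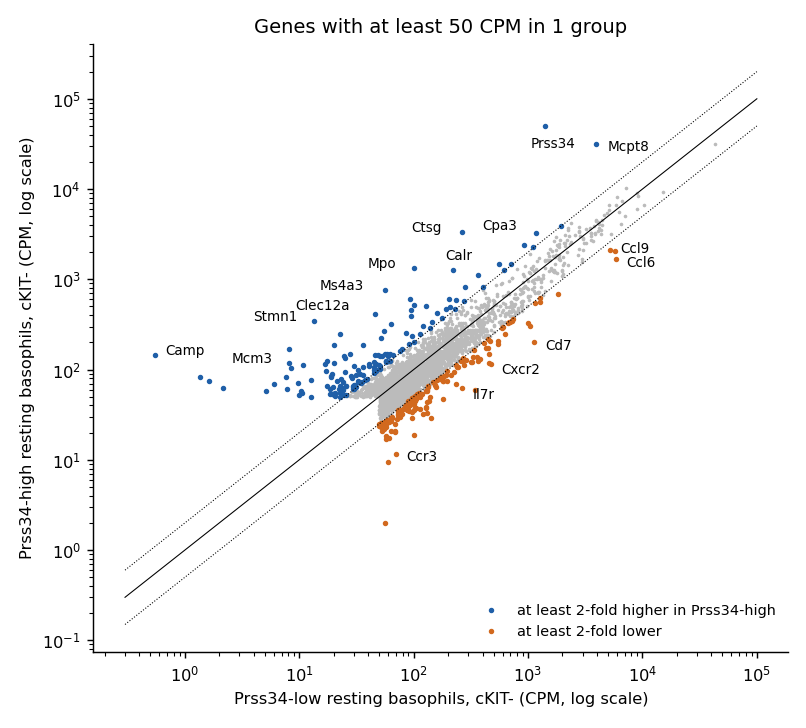
CPM of each gene in Prss34-low (x axis) and Prss34-high (y axis) resting basophils of the cKIT- library, both on log scales, with the line of equal CPM and dotted 2-fold lines. Ctsg (264 and 3302 CPM) and Mpo (101 and 1336 CPM) lie far above the lines, Ccl6 (5823 and 1660 CPM) and Cd7 (1128 and 201 CPM) below them, and Camp rests on 1 cell.

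Among granule proteases and their carrier serglycin, 4 of 5 measured genes were at least 2-fold higher in members. They include Prss34 and Mcpt8, which the rule used. Of the other 3, Ctsg and Cpa3 were at least 2-fold higher, and Srgn, which encodes serglycin, stood at 3081 against 2113 CPM. Mcpt8 stood at 31466 CPM in members and 3950 CPM in Prss34-low cells, a ratio of 7.97 (7.83 to 8.10). Over single cells it ran from 0.248% to 6.74% of UMIs in members (median 2.93%) and from 0 to 3.85% in Prss34-low cells (median 0.254%), so the ranges overlapped. Ctsg had 3302 CPM (3252 to 3352) against 264 CPM (248 to 281), a ratio of 12.5 (11.7 to 13.3). Cpa3 was 2.76 times higher, at 3245 against 1175 CPM. The primary granule gene Mpo had 1336 against 101 CPM, a ratio of 13.2 (11.9 to 14.7), and Ms4a3, a membrane protein of granulocyte progenitors, 764 against 55.9 CPM, a ratio of 13.7 (11.9 to 15.8).

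None of 5 measured Fc receptor subunits differed 2-fold, and their median log2 ratio was -0.13. Over all genes 4.65% were at least 2-fold higher and 4.87% lower, so a count of none among 5 is near that share. Fcer1a stood at 1402 CPM in members and 940 CPM in Prss34-low cells, and Ms4a2 at 2018 and 2210 CPM, and both are genes of the rule. Histamine and lipid mediator genes likewise had none of 6 past 2-fold, also near that share, with Hdc at 518 against 878 CPM. Of 16 measured transcription factors 0 were 2-fold higher and 2 lower, and Gata2 stood at 1257 against 1623 CPM.

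ER folding and secretion genes were higher as a group: 12 of 23 measured genes were at least 2-fold higher and none lower, with a median log2 ratio of 1.03, and the median stayed between 0.87 and 2.03 under every alternative tried. In both groups 20 of the 24 listed genes reached 50 CPM, and 10 of these 20 were at least 2-fold higher. Calr, the chaperone calreticulin, had 1257 CPM (1226 to 1289) in members and 220 CPM (205 to 236) in Prss34-low cells, a ratio of 5.72 (5.31 to 6.16). Pdia6, a disulfide isomerase, stood at 599 against 93.1 CPM. Sdf2l1, a partner of ER chaperones, had 168 against 8.15 CPM, a ratio of 20.6 (14.4 to 30.8). Other parts of the protein machinery differed less. Cytosolic ribosomal proteins took 18.6% of UMIs in members and 17.6% in Prss34-low cells (median log2 ratio 0.14, 3 of 70 genes at least 2-fold higher), and 0 of 36 proteasome subunits and 0 of 16 lysosome genes passed 2-fold.

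DNA replication genes were also higher, although the rule had left out cells with Mki67 or Top2a. The 16 listed S-phase genes summed to 1170 CPM in members and 287 CPM in Prss34-low cells. Of them 9 were measured and 8 were at least 2-fold higher, but 7 of these 8 reached 50 CPM only in members, so the minimum fixed most of this count. Mcm3, a subunit of the replicative helicase, had 117 CPM (108 to 127) in members against 8.15 CPM (5.50 to 11.6), a ratio of 14.4. Lig1, which joins DNA fragments during replication, had 75.6 against 1.63 CPM, a ratio of 46.4 with a wide interval of 21.1 to 127, since Prss34-low cells held few of its UMIs. Cdca7, a cell cycle gene, stood at 63.1 against 2.17 CPM, and Stmn1, which destabilizes microtubules, at 345 against 13.6 CPM. Sdf2l1, Mcm3, Lig1, Cdca7, Stmn1, Mpo, Ms4a3, the lincRNA gene 4930519L02Rik, Camp and Ngp had the 10 largest ratios, with Prss34 left out of the ranking. Of these, only Mpo and Ms4a3 reached 50 CPM in both groups, so the minimum fixed the side of the others.

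The word resting was therefore checked with cycle genes that the rule did not use. At 1000 UMIs per cell, 25.7% of members (22.7% to 28.9%) had a UMI of Mcm2 to Mcm7, against 5.29% of Prss34-low cells (4.08% to 6.73%), 39.6% of cycling cells (36.4% to 42.9%) and 13.2% of B-lineage cells. The summed level of these 6 genes was 528 CPM in members and 617 CPM in cycling cells. Mitosis genes were far below cycling cells, as the rule on Mki67 and Top2a largely fixes, but above Prss34-low cells. A UMI of 13 mitosis genes was found in 8.28% of members at 1000 UMIs (6.46% to 10.4%), 0.768% of Prss34-low cells, 85.6% of cycling cells and 6.17% of B-lineage cells (3.41% to 10.1%). The intervals of members and B-lineage cells overlap. B-lineage cells are no background for these genes, since 10 of the 227 had 3 or more of their UMIs over all UMIs. Over all UMIs 53 members (6.65%) had 3 or more, against 0 of 1172 Prss34-low cells (exact binomial upper bound 0.314%). The summed level of the 13 mitosis genes was 136 CPM in members, 12.2 CPM in Prss34-low cells, 4321 CPM in cycling cells and 1523 CPM in B-lineage cells. The Mcm UMIs lay in a part of the members: over all UMIs, 442 of 797 (55.5%) had at least 1 and 288 (36.1%) at least 3. Both sets of genes were thus higher in members than in Prss34-low cells, and for the replication genes the label resting goes against the data. Absence of Mki67 and Top2a is easier to meet in a shallow cell.

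**Figure D3:**
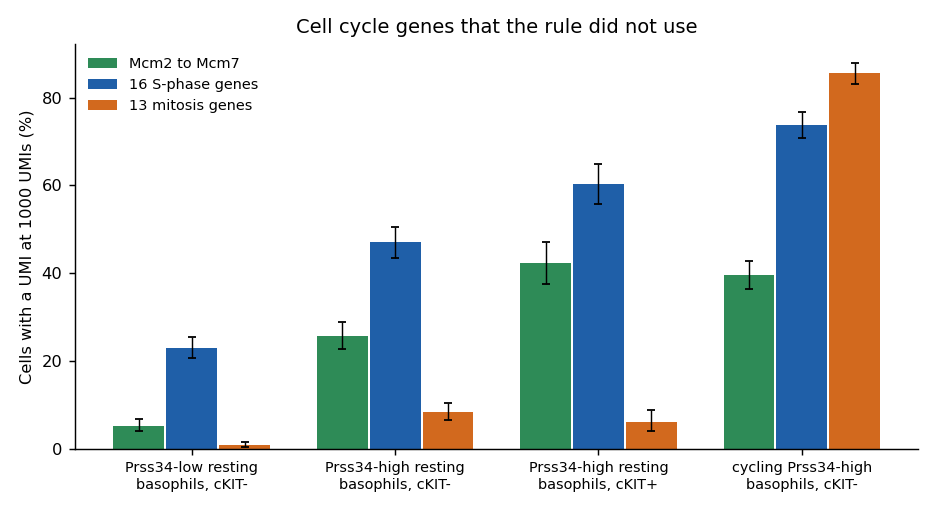
Share of cells with at least 1 UMI of Mcm2 to Mcm7, of 16 S-phase genes and of 13 mitosis genes after each cell was reduced to 1000 UMIs (y axis, %), in 4 groups of basophils, with exact binomial 95% intervals. Members of the cKIT- library had Mcm UMIs in 25.7% of cells and mitosis UMIs in 8.28%, against 39.6% and 85.6% in cycling cells.

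Chemokine genes were lower in members. Of 4 measured CCL genes 3 were at least 2-fold lower, with a median log2 ratio of -1.53 that stayed below 0 (-1.59 to -0.52) under every alternative, UMIs per cell included. Ccl6 (chromosome 11, 83587882 to 83593087, minus strand) had 1660 CPM (1624 to 1696) against 5823 CPM (5745 to 5901), so it was 3.51 times lower (3.42 to 3.60). Ccl4 stood at 303 against 1040 CPM, and Ccl3, like Ccl4 an inflammatory chemokine, at 1561 against 2977 CPM. Ccl9 had 2139 against 5157 CPM. Ccl6 and Ccl9 are related genes, and how the counting split shared reads is not known. Summed over the list, chemokines took between 0% and 2.63% of a member's UMIs (median 0.598%) and between 0.0172% and 5.00% in Prss34-low cells (median 1.47%). The cytokine genes Il4 (42.9 against 92.6 CPM) and Il6 (131 against 255 CPM) lay on the same side.

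Several receptors for chemoattractants and alarmins were lower. Of 8 measured chemoattractant receptors 4 were at least 2-fold lower and 1 higher. Only 4 of the 8 reached 50 CPM in both groups, with 1 of these lower and a median log2 ratio of -0.46. Cxcr2, a receptor for neutrophil-attracting chemokines, stood at 116 against 472 CPM, C5ar1, the receptor for complement C5a, at 19.0 against 101 CPM, and Ccr3, the eotaxin receptor, at 11.6 against 69.5 CPM. The higher one was Cxcr4, the receptor that retains cells in the marrow, at 148 CPM (138 to 160) in members against 27.7 CPM (22.6 to 33.6). Of 4 alarmin receptors 2 were at least 2-fold lower (median log2 ratio -1.13), with Il18r1, a chain of the IL-18 receptor, at 74.0 against 195 CPM. Il7r, the IL-7 receptor alpha chain, had 62.1 against 263 CPM.

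Inhibitory and adhesion receptors differed within their groups. Of 8 measured CD200 receptor family and inhibitory receptor genes 3 were at least 2-fold lower and 1 higher, with a median log2 ratio of -0.73 in CPM that turned to 0.27 in UMIs per cell. The lower ones were Cd200r3, which the rule used (336 against 690 CPM), and the close copies Lilr4b (332 against 1000 CPM) and Lilrb4a (69.0 against 234 CPM). The higher one was Clec12a, an inhibitory C-type lectin, at 417 CPM (399 to 435) against 45.6 CPM (39.0 to 53.1). Of 10 measured integrin and CD31 genes 3 were lower, 2 of which reached 50 CPM only in Prss34-low cells, with a median log2 ratio of -0.57 in CPM and 0.43 in UMIs per cell. Cdh1 stood at 214 against 333 CPM. Cd7, an immunoglobulin family receptor best known from T and NK cells (chromosome 11, 121036747 to 121039418), had 201 CPM (188 to 213) against 1128 CPM (1094 to 1163), 5.62 times lower (5.25 to 6.03).

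The 10 largest ratios toward Prss34-low cells were those of Wdr95, Dnase2b, Ccr3, Slfn2, Cd7, C5ar1, Zfp36, Il7r, Cxcr2 and Vopp1. At least Wdr95, Ccr3, C5ar1 and Zfp36 among them reached 50 CPM only in Prss34-low cells, which fixed their side. Wdr95 had 10 UMIs in members, or 2.00 CPM, against 55.7 CPM. Zfp36, which drives the decay of inflammatory mRNAs, stood at 28.7 against 143 CPM, and Slfn2, a Schlafen family gene, at 60.1 against 343 CPM. Zfp36 is one of 3 among 10 measured immediate early genes that were at least 2-fold lower (median log2 ratio -0.70, and 0.30 in UMIs per cell), and 2 of the 3 reached 50 CPM only in Prss34-low cells. Ifitm1, an interferon-induced membrane protein, had 2061 against 5796 CPM. Among genes of survival, Bcl2 was higher in members, at 98.2 against 32.3 CPM, the single one of 7 BCL2 family genes past 2-fold. It reached 50 CPM only in members, so the minimum fixed its side. Of the 4 genes of the family that reached 50 CPM in both groups, 0 passed 2-fold. Over all genes 4.65% were at least 2-fold higher.

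**Figure D4:**
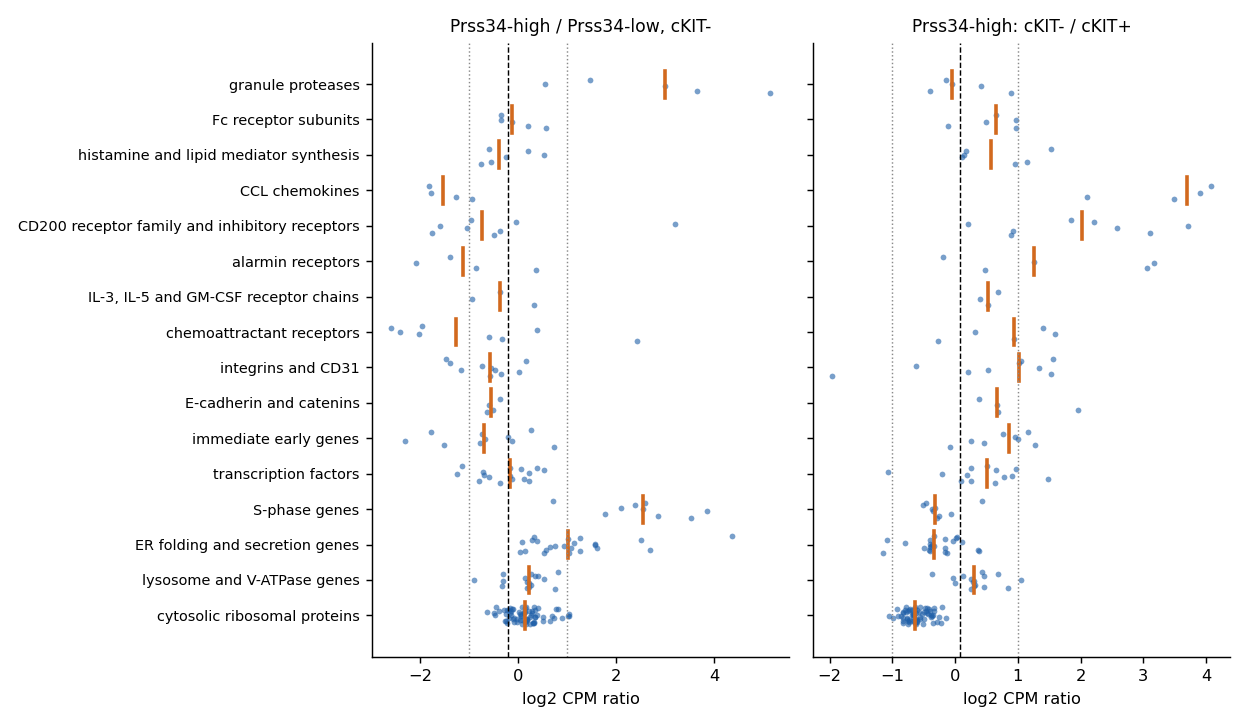
log2 CPM ratio of single genes (points) and their median (orange line) in 16 gene groups, each with at least 50 CPM in 1 of the groups compared, for Prss34-high over Prss34-low resting basophils (left) and for cKIT- over cKIT+ Prss34-high resting basophils (right), with the median of all genes dashed and 2-fold dotted. Chemokines lie left on the left (-1.53) and right on the right (3.70), and ER genes the other way (1.03 and -0.34).

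Members also differed among themselves along their Prss34 share. They were split into 4 parts of 200, 199, 199 and 199 cells with median Prss34 shares of 1.86%, 3.68%, 5.48% and 7.43%. Median UMIs per cell went with the share, at 4274, 5030, 6305 and 6823, and the part of depth in what follows was not tested. Between the highest and the lowest part, 52 of 2947 genes were at least 2-fold higher and 80 at least 2-fold lower, of which 32 and 56 reached 50 CPM only in the part where they were high. Mcpt8 followed Prss34, at 16917, 26757, 35746 and 41091 CPM from the lowest part to the highest. Ctsg did so as well, at 1582, 2765, 3949 and 4281 CPM. Mpo did not keep this order, with 841, 1475, 1680 and 1203 CPM.

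The replication and ER genes named above did not all follow the parts alike. Mcm3 stood at 40.1 CPM (28.4 to 55.1) in the lowest part, then at 96.5, 139 and 165 CPM (144 to 187). Pdia6 had 250, 511, 709 and 799 CPM, while Calr levelled off at 771, 1323, 1446 and 1337 CPM and Hspa5 was higher in the middle parts, at 210, 340, 324 and 256 CPM. Several genes that were lower in members than in Prss34-low cells ran the other way. Ccl6 stood at 2864, 1741, 1301 and 1139 CPM, Cd7 at 470, 241, 114 and 70.0 CPM, and Il7r at 131, 73.2, 36.3 and 31.8 CPM. Ccl3 did not keep this order, with 2079, 1472, 1272 and 1578 CPM. Even in the lowest part Ccl6 and Cd7 stayed below their levels in Prss34-low cells, 5823 and 1128 CPM. Fcer1a followed Prss34, at 1030, 1128, 1567 and 1729 CPM. Apoe, which carries lipids, had 484, 572, 510 and 465 CPM and kept neither order.

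**Figure D5:**
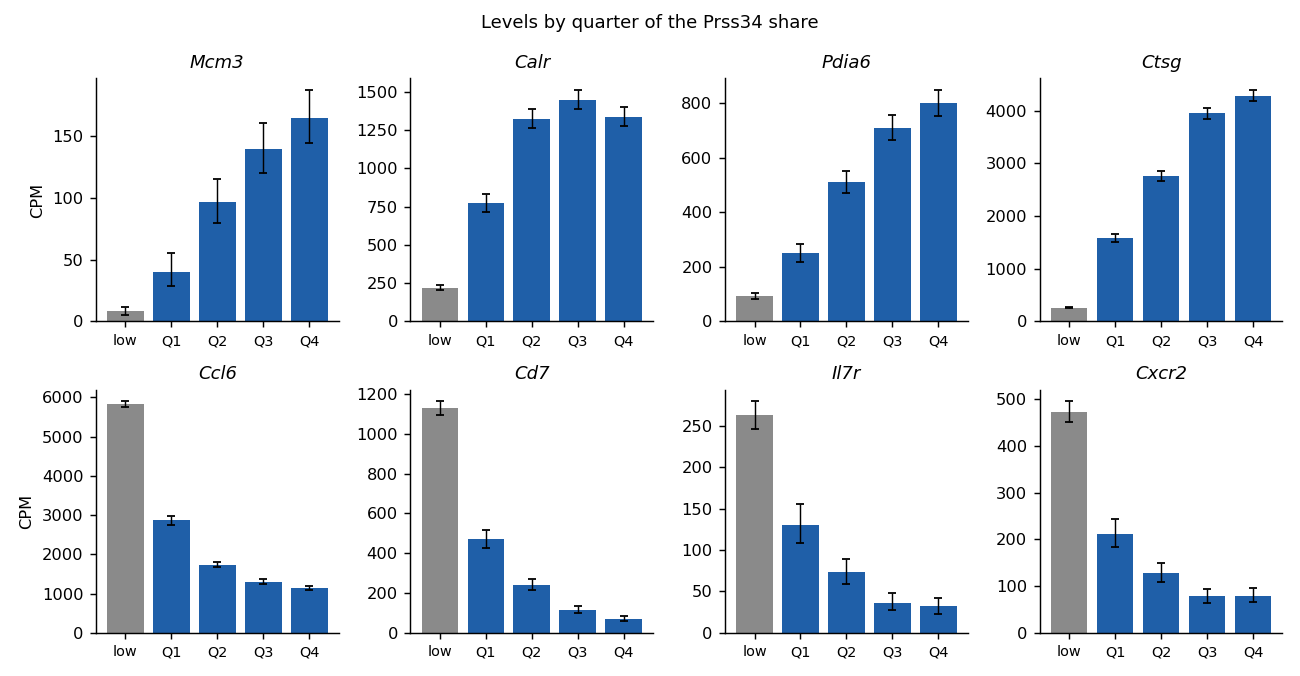
CPM of 8 genes in Prss34-low resting basophils (grey) and in members split into 4 parts by their Prss34 share, from lowest (Q1) to highest (Q4), with exact Poisson 95% intervals. Mcm3 goes from 40.1 to 165 CPM and Cd7 from 470 to 70.0 CPM between Q1 and Q4.

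Members were next set beside the cycling Prss34-high cells of the same library. Of 3095 genes 55 were at least 2-fold higher in members (1.78%) and 263 at least 2-fold lower (8.5%), with an all-gene median log2 ratio of -0.10. Of these, 36 of the 55 and 188 of the 263 reached 50 CPM only in the group where they were high. In UMIs per cell the counts were 6 and 1612, since cycling cells held 1.90 times more UMIs. Prss34 stood at 49945 CPM in members and 56060 CPM in cycling cells, Mcpt8 at 31466 and 34824 CPM, and Ctsg at 3302 and 4327 CPM. All 18 G2 and mitosis genes were at least 2-fold lower in members, which the rule partly fixed through Mki67 and Top2a, and 14 of the 18 reached 50 CPM only in cycling cells. The 64 clustered histone genes listed took 0.0512% of UMIs in members and 0.224% in cycling cells. Of the 12 measured, 10 reached 50 CPM only in cycling cells. Nusap1, a spindle protein, had 1.60 against 264 CPM, and the linker histone gene Hist1h1b 2.79 against 403 CPM. The other largest ratios on this side were those of Ncapg, Pbk, Spc25 and Kif15. The 16 S-phase genes summed to 1170 CPM in members and 2361 CPM in cycling cells. Of the 9 that reached 50 CPM in both, 2 were at least 2-fold lower.

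The 6 genes with the largest ratios toward members were higher still in Prss34-low cells. Cd7 had 201 CPM in members, 32.7 CPM (29.3 to 36.3) in cycling cells and 1128 CPM in Prss34-low cells. Tcp11l2 stood at 125 against 18.9 CPM, Igsf6 at 119 against 23.2 CPM and Ypel3, of a conserved family linked to growth arrest, at 210 against 50.6 CPM. Gdpd3 (340 against 83.6 CPM) and Pnpla7 (57.5 against 15.2 CPM), both enzymes of lysophospholipid breakdown, completed the 6 largest. Only Ypel3 and Gdpd3 of the 6 reached 50 CPM in both members and cycling cells. Of 4 chemokine genes 3 were at least 2-fold higher, with a median log2 ratio of 1.07 in CPM and 0.15 in UMIs per cell, and Ccl6 stood at 1660 against 806 CPM. Calr was on the other side, at 1257 against 2183 CPM.

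The same rule applied to the E-cadherin+cKIT+ library gave 442 cells, 6.66% of its 6632 cells (6.08% to 7.29%). Of 2898 genes 185 were at least 2-fold higher in the cKIT- cells (6.38%) and 94 at least 2-fold lower (3.24%), with an all-gene median log2 ratio of 0.07. Of these, 96 of the 185 and 53 of the 94 reached 50 CPM only in the group where they were high. In UMIs per cell the counts were 43 and 678, since the cKIT+ cells held 1.62 times more UMIs. Kit had 1.197 CPM (0.439 to 2.61) in cKIT- and 17.7 CPM (14.1 to 22.1) in cKIT+ cells, the order that the sort labels give. Prss34 stood at 49945 CPM in cKIT- and 26824 CPM in cKIT+ cells, and Mcpt8 at 31466 and 23632 CPM. None of the 5 measured protease genes differed 2-fold, with Cpa3 at 3245 and 3581 CPM and Ctsg at 3302 and 4351 CPM. Mpo was lower in cKIT- cells, at 1336 against 3443 CPM, 2.58 times (2.50 to 2.65).

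Chemokine and receptor genes were among the 10 largest ratios toward the cKIT- cells, 8 of which were of genes that reached 50 CPM only there. All 4 measured CCL genes were at least 2-fold higher in the cKIT- cells, with a median log2 ratio of 3.70 that lay between 2.998 and 3.96 under the alternatives. Ccl6 had 1660 against 97.7 CPM (88.8 to 107), a ratio of 17.0 (15.4 to 18.7), Ccl4 303 against 20.2 CPM, and Ccl3 1561 against 139 CPM. The 10 listed CD200 receptor family and inhibitory receptor genes took 0.172% of UMIs in cKIT- and 0.0655% in cKIT+ cells. Of the 8 measured 5 were at least 2-fold higher and none lower, but 4 of these 5 reached 50 CPM only in cKIT- cells. Of the 3 that reached it in both, 1 was higher. Cd200r3, a gene of the rule, stood at 336 against 55.8 CPM and Cd200r4 at 223 against 48.1 CPM, and the 2 are close copies. Lilr4b had 332 against 25.5 CPM. Cd7 (201 against 10.6 CPM), Il7r (62.1 against 6.87 CPM), Lilrb4a, Il18r1, Adora2b, an adenosine receptor, and F2r, a thrombin receptor, completed the 10 largest ratios. Integrin and CD31 genes were 2-fold higher in 5 of 9 cases and lower in 1. That one was Itga4, the integrin chain for VCAM-1, at 16.4 against 63.6 CPM, which reached 50 CPM only in cKIT+ cells.

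Some progenitor genes and ribosomal genes had lower CPM in the cKIT- cells. The 8 listed stem and early progenitor markers summed to 122 CPM in cKIT- and 294 CPM in cKIT+ cells, and the 2 that were measured, Cd34 and Sox4, reached 50 CPM only in cKIT+ cells. Cd34 had 17.6 against 72.2 CPM, Sox4, a progenitor transcription factor, 27.7 against 151 CPM, and the neutrophil protease gene Prtn3 15.0 against 123 CPM. With Rgcc (7.98 against 91.7 CPM), Gm17590, Tmem176b, Tmem176a, AY036118, Itga4 and Gsto1 they had the 10 largest ratios in this direction, and all 10 genes reached 50 CPM only in cKIT+ cells. Cytosolic ribosomal proteins took 18.6% of UMIs in cKIT- and 28.5% in cKIT+ cells, although 1 of 70 genes passed 2-fold (median log2 ratio -0.63, and from -1.33 to -0.56 under the alternatives). ER genes had a median log2 ratio of -0.34, with 2 of 23 at least 2-fold lower, Calr at 1257 against 2670 CPM and Hspa5, the ER chaperone BiP, at 287 against 635 CPM. Members thus stood between the other groups for several genes. Calr had 220 CPM in Prss34-low, 1257 in Prss34-high cKIT- and 2670 CPM in Prss34-high cKIT+ cells, and Ccl6 5823, 1660 and 97.7 CPM. Prss34 and Mcpt8, both used by the rule, did not keep this order and were highest in members.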

How the data were processed

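Single-cell 3' RNA libraries of sorted E-cadherin+cKIT+ and E-cadherin+cKIT- mouse bone marrow cells were analysed, 1 per condition. The counts deposited by the authors are whole UMIs, not normalized, from Cell Ranger 3.0.2 with the mm10 genome (submitters' processing notes). Their kit is given as version 2 in the labels and version 3 in the methods. The libraries held 95477153 UMIs in 6632 cKIT+ cells and 24033994 UMIs in 3745 cKIT- cells.

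Counts were read as deposited, summed over the cells of a group and scaled to CPM. Genes with at least 50 CPM in 1 of the groups compared were measured, and 2-fold was the size reported. The calculation of CPM ratios and their intervals was checked on simulated counts with known fold changes. This is a check of the arithmetic, not a test of any comparison. Sums and their ratios carry exact Poisson or binomial intervals and shares exact Clopper-Pearson intervals, at 95%. They cover counting error only, and no p-value was computed. For shares of cells, every cell was thinned to 1000 UMIs. The precision follows from 5010551 UMIs in members, 3682882 in Prss34-low, 10687570 in cycling and 4513755 in cKIT+ Prss34-high cells. Genes named are those of the rule and marker list, the 10 largest ratios in each direction (6 for cycling cells, Prss34 left out of its own comparison), and list members with high level, large ratio or defining role. The members and lists were chosen with earlier results of these data known. Doublets were scored with Scrublet in Scanpy 1.11.5. It marked 292 cKIT+ cells and 3 cKIT- cells, too few in the latter for the call to have worked, so none was removed, and leaving out the highest scores was an alternative. Other alternatives covered the limits of the rule, the study's cell filter (which keeps all 797 members), scaling (edgeR 4.0.16 TMM factors, DESeq2 1.42.0 size factors, equal weight per cell, UMIs per cell), minimum levels and depth. Coordinates came from GENCODE M21 (31011 of 31053 gene IDs found). Python 3.11.15 and R 4.3.3 were used.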

Additional observations from a re-analysis of the deposited data

Results flagged for a closer look

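The difference between Prss34-high and Prss34-low resting basophils was set beside the difference that the same rule gave in the cKIT+ library. There 442 cells were Prss34-high and 479 Prss34-low. Of 2414 genes measured in both, 14 were at least 2-fold different in the same direction in both libraries and 0 in opposite directions. In the cKIT- library, 4.65% of its 3120 measured genes were at least 2-fold higher and 4.87% lower. The share in the cKIT+ library is not given here, so 14 and 0 cannot be called many or few. At 1.5-fold each way, with both counting intervals off 1, 9 genes differed in opposite directions in CPM. In UMIs per cell, with no limit of size, 3 of the 9 had ratios on opposite sides of 1. They were Apoe (7.92 in the cKIT- and 0.703 in the cKIT+ library), Cd200r3 (0.974 and 2.12) and Itga1 (0.772 and 1.69). Each of them was under 1.5-fold in 1 library, and Cd200r3 was nearly equal in the cKIT- library. The other 6 were higher in the Prss34-high cells of both libraries. The difference between the libraries was not tested. Apoe was higher in the Prss34-high cells of the cKIT- library (ratio 3.96, 508 against 128 CPM) and lower in those of the cKIT+ library (0.657, 999 against 1521 CPM). The other genes had the reverse pattern. Alox15 had a ratio of 0.665 in the cKIT- and 2.94 in the cKIT+ library, Cd200r3, a gene of the rule, 0.487 and 1.98, and the IL-18 receptor chain Il18rap 0.552 and 1.88. The collagen-binding integrin chain Itga1 had ratios of 0.386 and 1.57, Ncf1, a subunit of the NADPH oxidase, 0.545 and 1.54, and the adaptor Hcst 0.620 and 1.502. Syne1 stood at 0.602 and 2.05, and Nhsl2 at 0.634 and 1.84. All 8 of these genes had lower CPM in the Prss34-low cells of the cKIT+ library than in those of the cKIT- library.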

How the results depend on the processing

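No paired analysis was possible because each sort gave 1 library, and no replicate could be left out. The number of members lay between 681 and 889 under the alternatives. Of the counts of members and of genes past 2-fold, 82 kept within 1.5 times and 30 did not. For Prss34-high over Prss34-low cells (145 higher, 152 lower), equal weight per cell gave 91 lower, UMIs per cell 1092 and 9, at least 10 UMIs without a CPM minimum 1229 and 584, a 20 CPM minimum 294 and 231, and 200 CPM 42 and 48. For cKIT- over cKIT+ cells (185 and 94), a Prss34 limit of 2% gave 55 lower, UMIs per cell 43 and 678, at least 10 UMIs 772 and 906, 20 CPM 317 and 199, 200 CPM 58 and 28, and thinning to 1000 UMIs 345 and 167. For members over cycling cells (55 and 263), equal weight per cell gave 87 higher, UMIs per cell 6 and 1612, at least 10 UMIs 655 and 1062, 20 CPM 135 and 455, 200 CPM 14 and 72, and thinning 142 higher. A lower minimum measures more genes and a higher one fewer, and UMIs per cell include the difference in depth. The cause of the other shifts was not tested. With the highest Scrublet scores left out (33 members among them), 3 log2 ratios of cKIT- over cKIT+ cells changed sign: Camp to 2.47, Ngp to 2.58 and the median of neutrophil markers to 2.47, all carried by few cells. That median was unstable in the other comparisons too. Under the alternatives it ran from -2.77 to 2.01 for members over cycling cells. For Prss34-high over Prss34-low cells it ran from 0.70 to 5.13. Leaving out the single member rich in Camp, an alternative chosen after seeing the data, gave 142 higher and 152 lower genes. With 1 library a group, no error between animals or sorts could be measured.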
